A study of Rattus norvegicus with 34 samples.

Results

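Serpina1 and A2m encode the plasma protease inhibitors alpha-1-antitrypsin and alpha-2-macroglobulin, and they are the 2 genes described here of 239 probes with a gene name on a small 2-colour cDNA array. Their probes were found by the gene names in the spot files and followed by grid position (row 5, column 13 and row 16, column 5) on the arrays whose files hold numeric IDs. The genes were selected on their log2 ratios, mainly those of embryo bone, and on their channel levels in these same arrays. Ratios and levels of Serpina1 and A2m are therefore given as a description, without a test.

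Alpha-1-antitrypsin is a serpin: a protease cleaves its reactive loop and is trapped in a covalent complex, and neutrophil elastase is its main target. Alpha-2-macroglobulin is a large tetramer that closes around proteases of all classes, and Lrp1, a scavenging receptor of the cell surface, removes the loaded complexes. Both inhibitors are made mainly by hepatocytes and secreted into plasma. In the rat A2m is an acute-phase gene, driven by interleukin-6 through Stat3.

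RNA came from pregnant Wistar rats and their embryos, and 34 arrays each paired RNA of treated animals (Cy5) with RNA of vehicle-treated animals (Cy3). Treatment was EMD 82571, a calcium sensitizer by the series title, at 50 mg/kg/day (low dose) or 150 mg/kg/day (high dose), or retinoic acid, the vitamin A acid that causes malformations in embryos. The protocol names oral courses over gestational days 6 to 11 and 6 to 17. Day 12 gave whole embryo and maternal liver, and day 20 gave maternal liver, embryo liver and embryo bone, which with 3 treatments gives 15 groups. Each group held 2 arrays, except that retinoic acid on day 12 had 4 arrays for embryo and 4 for maternal liver. For retinoic acid the protocol states 12 mg/kg/day and the labels of the samples 20 mg, while titles carry 20, 6 or no number beside RA, so no dose is attached to it. The series text names 5 control and 5 treated replicates, which does not match the arrays. No label says whether arrays of a group hold separate animals, pools or technical repeats, so errors and p-values cover the spread between these arrays only.

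Array numbers in the titles fall into 3 sets, called array batches A, B and C. Day-12 groups with EMD 82571 lay in batch A, and day-20 groups with EMD 82571 and bone with retinoic acid lay in batch C. Day-12 retinoic acid groups were split between A and B, and retinoic acid in both day-20 livers lay in B. Arrays had 604 to 976 unmarked spots, and the median signal over local background was 1.57 to 4.32 in the vehicle channel and 1.18 to 5.03 in the treated channel. Each probe was printed as 4 spots. Dyes were never swapped, so a dye effect of a gene is part of each of its ratios. Both channels of Serpina1 and A2m were above background on all 34 arrays. In bulk RNA, fewer cells of a type and less RNA per cell cannot be told apart.

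In the GRCr8 annotation Serpina1 lies on chr6:128631101-128653125 and A2m on chr4:156570163-156619870. Near A2m on chromosome 4 lie its close relatives Mug1l1 and Mug1, and the relative Pzp lies farther off on that chromosome (163445265-163491358). A cDNA probe can also bind transcripts of such relatives, and the probe sequences were not analysed here, so A2m values are uncertain in that respect. The RefSeq promoter table held 1 of the 2 genes. The Serpina1 promoter is shown as a stretch where liver and acute-phase factors might be sought. It is given as the 250 bases before the annotated start, chr6:128653126-128653375 in GRCr8, minus strand, 5′ to 3′.
Serpina1 promoter: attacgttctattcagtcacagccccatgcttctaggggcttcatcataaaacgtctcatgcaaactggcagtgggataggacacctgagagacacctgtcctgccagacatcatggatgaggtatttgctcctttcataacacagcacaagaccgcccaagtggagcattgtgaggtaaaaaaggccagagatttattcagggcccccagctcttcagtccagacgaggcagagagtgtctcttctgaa
Capitals would mark a motif, and there are none. Within this stretch and the 50 bases after the start, 300 in all, 0 matches on either strand were found to TTCNNNGAA (the STAT element), GTTAAT (an HNF1 motif) or AGGTCA (a nuclear receptor motif). Of 33469 promoters of the same length, 8.9% held the STAT element, 7.5% the HNF1 motif and 16.2% the nuclear receptor motif. These searches describe the letters of the window only, and whether hepatocytes use this annotated start was not tested.

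Vehicle channels first show where both genes were expressed without drug. Serpina1 and A2m were bright in every liver, far dimmer in day-20 embryo bone and dimmest in day-12 embryo. There, counted from the brightest of 209 to 231 named probes, Serpina1 ranked 106 to 149 and A2m 132 to 169. The vehicle intensity of Serpina1, after subtraction of local background and in scanner units, ran from 138 to 433 with a median of 206 over the 8 day-12 embryo arrays. It ran from 1254 to 2479 (median 1709) on the 6 bone arrays, and from 7312 to 23346 (median 14243) on the 6 embryo liver arrays. Maternal liver gave 2296 to 24123 (median 9606, 8 arrays) on day 12 and 5788 to 14756 (median 9506, 6 arrays) on day 20. The livers overlapped one another, while bone and day-12 embryo lay apart from each other and below every liver of day 20.

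A2m followed the same order. Its vehicle intensity was 84.7 to 199 (median 160 over 8 arrays) in day-12 embryo and 457 to 821 (median 712 over 6 arrays) in bone. Embryo liver gave 18529 to 37583 (median 29040), and maternal liver gave 26063 to 43555 (median 31418) on day 12 and 31492 to 46098 (median 38974) on day 20. The brightest A2m spot, at 49477 units, was close to the brightest spot of any probe on these arrays, at 52268. Differences between livers, and treatment ratios in liver, were thus read near the top of the signal used by these scans.

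Within an array batch, levels were compared after normalization of each channel across arrays. In batch C the Serpina1 level was 13.4-fold lower in bone than in embryo liver, and that of A2m was 62.7-fold lower, without overlap of arrays. In batch A both genes were higher in maternal liver than in day-12 embryo, Serpina1 28.2-fold and A2m 186-fold. In batch B embryo liver stood 52.8-fold above day-12 embryo for Serpina1 and 132-fold for A2m. The 2 day-20 livers overlapped for Serpina1 in batches B and C. For A2m, maternal liver was 1.58-fold above embryo liver in batch C without overlap, and overlapped it in batch B unless channels were centred on their own median. Bone and day-12 embryo were never in the same batch, so their order rests on intensities across batches.

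**Figure D1:**
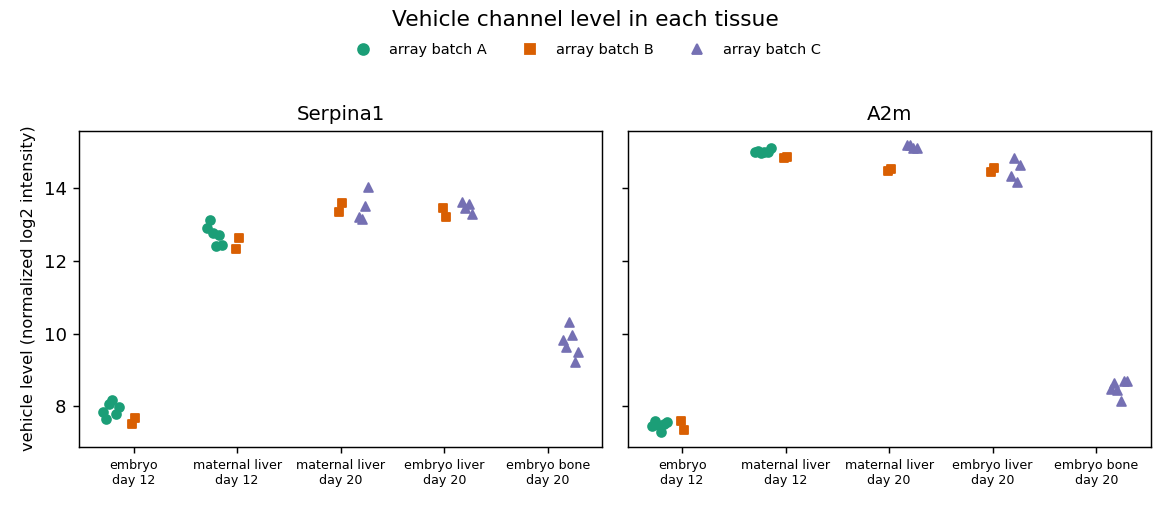
Normalized log2 intensity of the vehicle (Cy3) channel for Serpina1 (left) and A2m (right) by tissue, 1 point per array, marked by array batch. Livers lie at the top, embryo bone (Serpina1 9.21 to 10.32, A2m 8.15 to 8.69) far below them and day-12 embryo lowest.

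Markers of hepatocytes were weak in bone and in day-12 embryo. Of 19 listed hepatocyte markers, 13 were on the array. Albumin, alpha-fetoprotein and transthyretin, which define the cell type best, were not among them. The summed normalized vehicle level of the 13 was 40010 to 58180 in maternal liver, 5896 to 7252 in embryo liver, 1191 to 2070 in bone and 1756 to 2109 in day-12 embryo. Bone was marked by osteoblast transcripts instead: the summed level of Col1a2 and Spp1 was 12060 to 52250 there and at most 1082 in day-12 embryo. From these sums liver and bone carry the markers of their names as far as the array holds them. For osteoblasts that is 2 of 8 listed markers. Whole embryo had no marker list, and the hepatocyte sums of bone and day-12 embryo overlap.

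EMD 82571 went with far less signal of both inhibitors in embryo bone on day 20. At the low dose, Serpina1 intensity was 2023 in the vehicle channel and 267 in the treated channel of the first array, and 2479 and 427 on the second. With 150 mg/kg/day it was 1707 and 178 on the first array and 1710 and 282 on the second. The treated channel lay below every vehicle channel of bone at both doses. The normalized log2 ratio of treated over vehicle was -2.61 and -2.96 at the low dose, a mean of -2.79 ± 0.11 (SE, n = 2) or 6.90-fold lower. At the high dose it was -3.15 and -2.98, a mean of -3.07 ± 0.11 (SE, n = 2) or 8.37-fold lower. All 7 usable Serpina1 spots of each dose were below 0. The deposited table of log2 ratios gave -2.47 and -1.92. In the present fit Serpina1 had the lowest estimate among 235 genes measured at the low dose and 226 at the high dose.

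A2m came second lowest at both doses. On the low-dose arrays its intensity was 719 in vehicle and 189 in treated RNA, then 533 and 230. On the high-dose arrays it was 817 and 268, then 457 and 250.0. No treated channel reached a vehicle channel of bone. The log2 ratio was -1.54 and -1.51 at the low dose (mean -1.53 ± 0.37 SE, n = 2, 2.88-fold lower), and -1.58 and -1.24 at the high dose (mean -1.41 ± 0.37 SE, n = 2, 2.66-fold lower). All 8 usable spots of each dose were below 0. The SE of A2m is pooled over all groups and is widened by day-12 embryo with retinoic acid, where arrays had an SD of 1.34. The deposited table gave -1.17 and -0.88. A fit to bone arrays alone gave an SE of 0.082 for A2m and 0.086 for Serpina1.

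The doses gave close values, with treated channels that were dim at both. High minus low dose was -0.28 ± 0.16 (SE) for Serpina1 and 0.12 ± 0.52 for A2m on the log2 scale. Within each array the ratio of A2m exceeded that of Serpina1. The excess was 1.07 and 1.45 at the low dose and 1.57 and 1.74 at the high dose. Treated intensities of both genes were low, 178 to 427 for Serpina1 and 189 to 268 for A2m. Vehicle intensity was 1707 to 2479 for Serpina1 and 457 to 817 for A2m, so A2m had less room to fall. How far such low signals compressed the ratios, or the difference between doses, was not tested.

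With retinoic acid the 2 genes parted in bone. Serpina1 intensity was 1254 in vehicle and 1022 in treated RNA on the first array and 1316 and 910 on the second, with log2 ratios of -0.14 and -0.19 (mean -0.17 ± 0.11 SE, n = 2) that turned to a mean of 0.13 in the deposited table of log2 ratios. A2m intensity was 821 and 3851 on the first array and 705 and 2314 on the second. Its log2 ratios were 2.20 and 2.06, a mean of 2.13 ± 0.37 (SE, n = 2) or 4.37-fold higher, with all 8 spots above 0. Treated channels of A2m lay above every vehicle channel of bone, and only Cyp2c7, a liver cytochrome P450, had a higher estimate among 214 genes (2.47). High dose of EMD 82571 minus retinoic acid was -2.90 ± 0.16 (SE) for Serpina1 and -3.54 ± 0.52 for A2m. The retinoic acid bone arrays were quantified in another session than the EMD 82571 bone arrays by the file headers, so session and compound cannot be told apart in that difference.

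**Figure D2:**
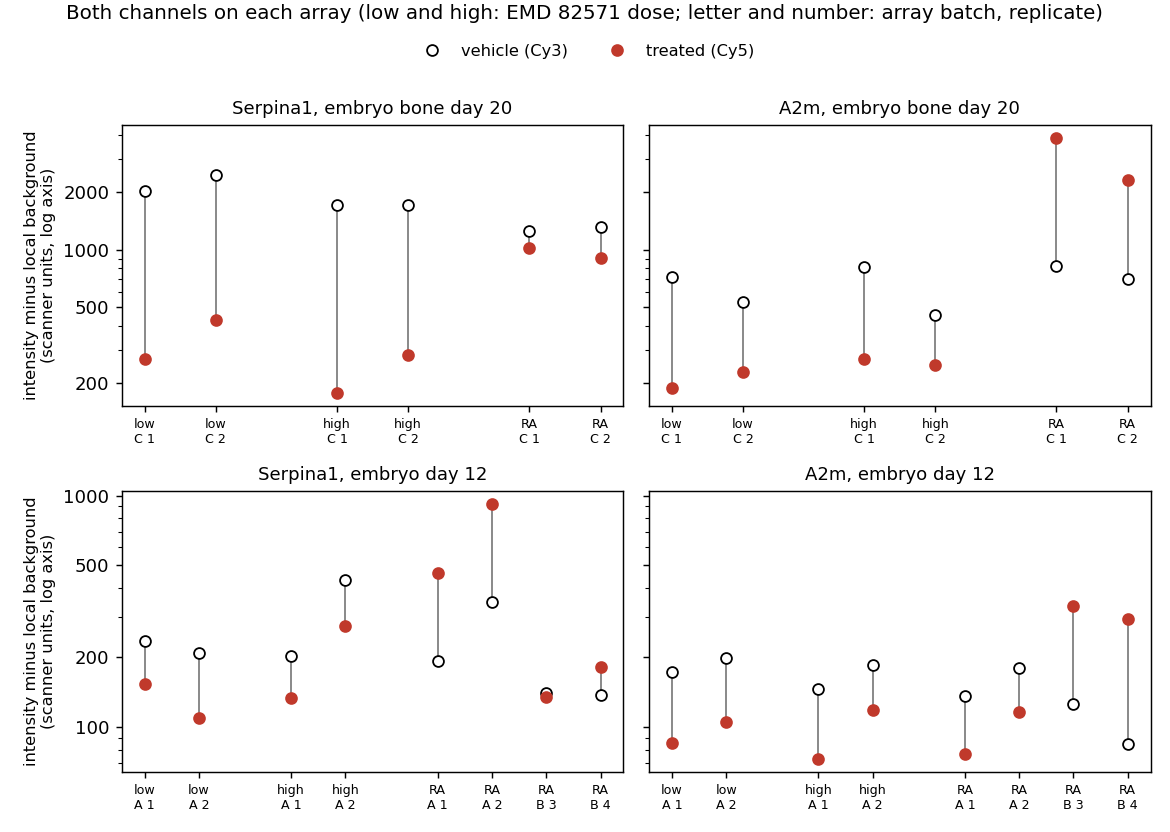
Background-subtracted intensity (scanner units, log axis) of the vehicle channel (open) and the treated channel (filled) of each array, joined by a line, for embryo bone on day 20 (top) and embryo on day 12 (bottom). In bone the treated channel is the lower one for both genes with EMD 82571, and with retinoic acid A2m is higher in treated RNA (3851 against 821, 2314 against 705).

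Almost no hepatocyte marker passed the threshold in bone with EMD 82571. At the low dose 0 of 13 rose and 0 fell by limma (1 had an unadjusted p under 0.05), beside 12.3% of all genes past the threshold (two-sided, Benjamini-Hochberg adjusted p under 0.05 over all genes tested). With 150 mg/kg/day 1 of 13 rose, Foxa1, and 0 fell, beside 31% of all genes. Their summed level was 1191 to 1297 in vehicle and 1239 to 1320 in treated RNA over the 4 arrays. These levels are low, against 5896 to 7252 in embryo liver vehicle, so a fall had little room to show. Whether hepatocyte RNA changed in bone was not tested. With retinoic acid 3 of 11 tested rose (Cyp2c7, Cyp2c12 and Cyp2e1) and 6 fell, beside 49.5% of all genes, and the sum was 1624 to 2070 in vehicle and 1706 to 1818 in treated RNA. Also with retinoic acid, 2 of 3 blood and leukocyte markers fell (sums of 332 to 341 in vehicle and 232 to 238 in treated RNA). Of 4 cartilage markers 2 fell (4000 to 4327 in vehicle and 3807 to 3994 in treated RNA). Of 2 osteoblast markers 1 rose (12060 to 15690 and 13080 to 17160). The sums leave out Csf1r of the blood markers and Col2a1 of the cartilage markers. Of 5 markers of smooth muscle and endothelium 1 rose, Kdr, a receptor of endothelial growth factor, by 0.27 ± 0.06, with sums of 1560 to 2192 in vehicle and 1828 to 2520 in treated RNA.

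Markers of skeletal cells did move in the same bone arrays. Cartilage genes rose with EMD 82571, 3 of 4 at the low dose and 2 of 2 tested at the high dose, beside 12.3% and 31% of all genes called. Col2a1, the main collagen of cartilage, changed by 1.25 ± 0.07 and 1.52 ± 0.07 (log2, SE), and Acan, the proteoglycan aggrecan, by 0.80 ± 0.07 and 0.79 ± 0.07. The cartilage sum leaves out Col2a1 and covers Acan, Col9a1 and Col11a1, with 1168 to 8011 in vehicle and 2086 to 12870 in treated RNA. On the first high-dose array (1168 and 2086) only 1 of these probes had a value. Both osteoblast markers, Col1a2 and Spp1, fell at the low dose (-0.43 ± 0.11 and -0.35 ± 0.08). At the high dose Spp1 did not pass (0.00 ± 0.08), and Col1a2 had a value on 1 array only, -1.02, and was not tested. The osteoblast sum over both doses was 15260 to 52250 in vehicle and 15750 to 39680 in treated RNA. On the first high-dose array (15260 and 15750) it holds Spp1 alone. Mmp9, the gelatinase listed for osteoclasts, fell at both doses, with sums of 3355 to 4325 in vehicle and 1651 to 2904 in treated RNA. Of 3 blood and leukocyte markers 1 fell at the low dose, Csf1r (-0.16 ± 0.05). At the high dose 1 rose, Itgb2 (0.25 ± 0.09), and 1 fell, again Csf1r (-0.55 ± 0.05). The sum leaves out Csf1r and covers Itgal and Itgb2, with 221 to 249 in vehicle and 223 to 258 in treated RNA. The 5 markers of smooth muscle and endothelium had 0 calls at either dose by limma, and 0 had an unadjusted p under 0.05. Cartilage genes also rose in embryo liver with EMD 82571, 1 of 4 at the low dose and 2 of 4 at the high dose. Of all genes there, 12.3% and 38.1% were called. Col2a1 changed in embryo liver by 0.55 ± 0.07 and 2.03 ± 0.07, and Acan by 0.27 ± 0.07 at the high dose. Of 13 hepatocyte markers in embryo liver, 1 fell at the low dose, and at the high dose 1 rose and 4 fell. The part of any of these cell types in the values of Serpina1 and A2m was not tested.

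With EMD 82571 no listed gene of protease control had an estimate in bone as low as that of Serpina1 or A2m. The list of proteases, inhibitors and clearance genes has 47 symbols, 18 of them on the array besides Serpina1 and A2m. At the low dose 0 rose and 5 fell of 18, beside 12.3% of all genes called, with a median log2 ratio of -0.04 beside -0.00 over all genes. With 150 mg/kg/day 3 rose and 5 fell of 17, beside 31% of all genes (median -0.06 beside -0.00). Mmp9 had the largest drop there, -1.10 ± 0.09 (adjusted p = 1.49e-08), followed by Tgfb1, a growth factor that alpha-2-macroglobulin can bind, with -0.77 ± 0.06 (adjusted p = 1.37e-09). Plat, the tissue plasminogen activator, rose by 0.52 ± 0.05 (adjusted p = 4.84e-08), and Timp3, a matrix-bound metalloprotease inhibitor, by 0.26 ± 0.05 (adjusted p = 0.000228). With retinoic acid 1 rose and 4 fell of 16, beside 49.5% of all genes (median 0.01 beside -0.01).

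Of the 5 calls with retinoic acid, Timp3 rose by 0.20 ± 0.05 (adjusted p = 0.0014). Mmp11, a stromelysin, fell by 0.29 ± 0.08 (adjusted p = 0.00368) and Timp2 by 0.18 ± 0.06 (adjusted p = 0.0125). Mmp24, a membrane-bound metalloprotease, had -1.76 ± 0.08 (adjusted p = 1.39e-08) but 0.27 in the deposited table, and Timp2 likewise turned to 0.36 there. The directions of Mmp24 and Timp2 therefore depend on how the ratios were made. The call was lost without the first array for Mmp11 (-0.16), without the second for Timp3 (0.12) and on leaving out either for Timp2.

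**Figure D3:**
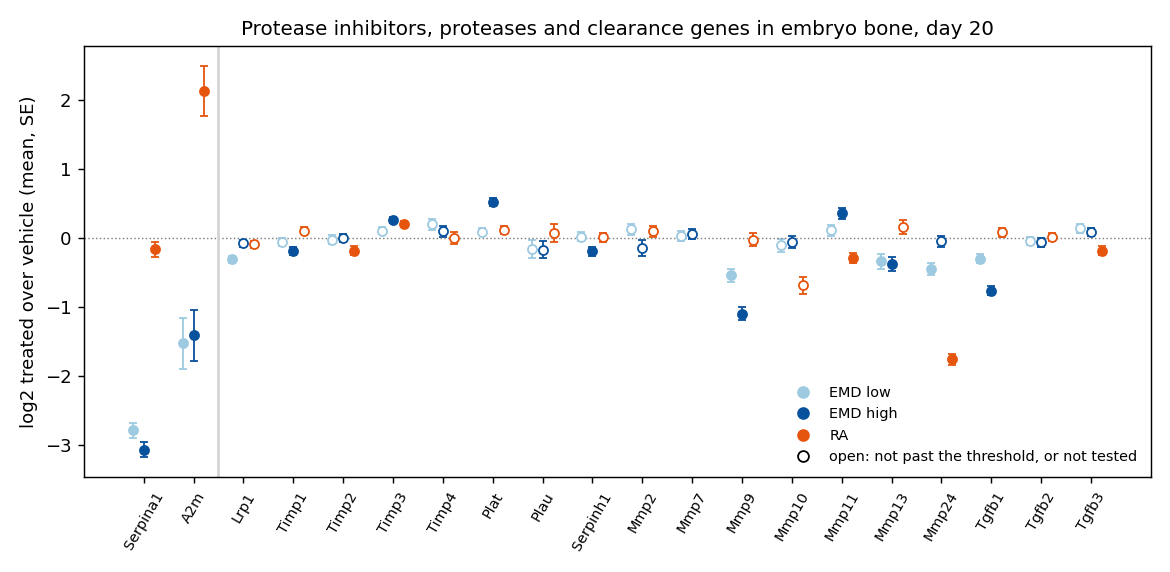
Mean log2 ratio of treated over vehicle in embryo bone with its SE (2 arrays a group) for Serpina1, A2m and the 18 measured genes of the protease list, for EMD 82571 at both doses and retinoic acid. Filled points passed the threshold for the listed genes and carry no test for Serpina1 and A2m. These 2 genes, selected on such ratios, lie at -2.79 and -3.07 and at -1.53 and -1.41 with EMD 82571, below all listed genes at the same dose.

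Liver-enriched regulators and acute-phase genes were fixed as further lists. Of 9 measured hepatocyte factors and liver-made proteins, 0 rose and 0 fell in bone at the low dose by limma (1 with an unadjusted p under 0.05), beside 12.3% of all genes called. At the high dose 2 rose and 0 fell, beside 31%: Foxa1, a pioneer factor of liver genes, by 0.29 ± 0.05 (adjusted p = 0.000191) and Cebpb, an acute-phase regulator, by 0.51 ± 0.17 (adjusted p = 0.0301). Leaving out either array ended the call of Cebpb, at 0.49 and 0.52. With retinoic acid 2 rose and 4 fell of 8, beside 49.5%. On these 2 arrays 11 and 7 of the 13 hepatocyte markers were above background in vehicle, so some of them were read close to background. The falls were Cyp7a1, the first enzyme of bile acid formation (-1.01 ± 0.09, adjusted p = 6.06e-09), Foxa2 (-0.59 ± 0.10, adjusted p = 2.05e-05), Foxa1 (-0.40 ± 0.05, adjusted p = 1.70e-06) and Hgf, the hepatocyte growth factor (-0.40 ± 0.06, adjusted p = 8.82e-06). Of 5 acute-phase signalling genes 0 passed by limma at either dose (0 and 1 with an unadjusted p under 0.05), beside the same 12.3% and 31% of all genes. With retinoic acid 1 of 4 fell, beside 49.5%, the cytokine gene Csf2 (-1.23 ± 0.06, adjusted p = 2.65e-11).

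Embryo liver, the brighter tissue on day 20, had ratios closer to 0 than bone for both genes with EMD 82571 and for A2m with retinoic acid. Serpina1 log2 ratios were -0.16 and -0.10 at the low dose (mean -0.13 ± 0.11 SE, n = 2), and -0.33 and -0.29 at the high dose (mean -0.31 ± 0.11). With retinoic acid they were 0.07 and 0.20 (mean 0.14 ± 0.11). The last mean was 0.49 with median centring and 0.69 in the deposited table, and that of the high dose -0.08 with median centring. On the second array of the high dose and the second of retinoic acid a single Serpina1 spot was usable. A2m ratios were 0.01 and 0.05 at the low dose, -0.15 and -0.01 at the high dose, and 0.08 and 0.11 with retinoic acid (means 0.03, -0.08 and 0.10, each ± 0.37 SE, n = 2), and the deposited table gave 0.29 at the high dose and 0.83 with retinoic acid. For Serpina1 the intensities of the channels overlapped in all 3 groups. Bone minus embryo liver was -2.66 ± 0.16 (SE) at the low dose and -2.76 ± 0.16 at the high dose for Serpina1, and -1.56 ± 0.52 and -1.33 ± 0.52 for A2m. With retinoic acid it was -0.30 ± 0.16 for Serpina1 and 2.03 ± 0.52 for A2m, across array batches C and B, so batch and tissue cannot be told apart there.

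Listed genes were called in embryo liver at both doses and with retinoic acid. Of the protease list 0 rose and 2 fell of 18 at the low dose, beside 12.3% of all genes called. At the high dose 1 rose and 5 fell of 18, beside 38.1%, with Tgfb1 at -0.39 ± 0.06 (adjusted p = 4.41e-05), Mmp2, a gelatinase, at -0.30 ± 0.08 (adjusted p = 0.00364) and Timp4 at -0.27 ± 0.08 (adjusted p = 0.0116). With retinoic acid 8 rose and 1 fell of 15, beside 50% of all genes. Tgfb1 rose by 0.57 ± 0.06 (adjusted p = 6.93e-07) and Timp1, a secreted inhibitor of metalloproteases, by 0.45 ± 0.06 (adjusted p = 1.32e-06). Timp3 and Tgfb2 rose by 0.34 and 0.26 (adjusted p = 7.97e-06 and 0.00166), but both were just under 0 in the deposited table (-0.01 and -0.05), and Tgfb2 also with median centring (-0.05). Calls were lost without the second high-dose array for Mmp2 (-0.25), on leaving out either for Timp4 (-0.29 and -0.25), and without the first retinoic acid array for Tgfb2 (0.14).

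Among the 9 hepatocyte factors and liver-made proteins in embryo liver, 0 rose and 1 fell at the low dose, beside 12.3% of all genes called. At the high dose 2 rose and 3 fell, beside 38.1%. Cyp7a1 fell by 0.98 ± 0.09 (adjusted p = 1.01e-08) and Igf1, a liver-made growth factor, by 0.78 ± 0.10 (adjusted p = 2.45e-06) at the high dose. Foxa1 fell by 0.45 ± 0.05 (adjusted p = 7.53e-07) and Foxa3 rose by 0.35 ± 0.11 (adjusted p = 0.0199). With retinoic acid 2 rose and 1 fell of 9 by limma, beside 50% of all genes. Cyp2e1, an ethanol-inducible P450, rose by 1.06 ± 0.14 (adjusted p = 3.55e-06) and Igf1 by 0.25 ± 0.10 (adjusted p = 0.0484). Foxa1 had -0.29 ± 0.05 (adjusted p = 0.000151) but 0.04 in the deposited table. Of the acute-phase list 0 of 5 passed by limma at the low dose (1 with an unadjusted p under 0.05). Junb, an immediate early gene, rose by 0.70 ± 0.15 at the high dose (adjusted p = 0.000482) and had -0.38 ± 0.15 with retinoic acid (adjusted p = 0.0344), and Csf2 fell in both groups (-0.21 ± 0.06 and -0.44 ± 0.06, adjusted p = 0.0119 and 1.88e-05). Leaving out either array ended the calls of Foxa3 (0.28 and 0.41) and Csf2 (-0.22 and -0.20) at the high dose and of Igf1 (0.16 and 0.34) and Junb (-0.52 and -0.25) with retinoic acid.

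In maternal liver Serpina1 was lowest on day 20 with EMD 82571, and A2m ratios varied most with retinoic acid. On day 12 Serpina1 log2 ratios were -0.01 and -0.09 at the low dose, 0.15 and 0.24 at the high dose, and 0.03, 0.16, -0.07 and -0.13 with retinoic acid. On day 20 they were -0.39 and -0.36 at the low dose (mean -0.37 ± 0.11 SE, n = 2) and -0.47 and -0.34 at the high dose (mean -0.40 ± 0.11). With retinoic acid they were 0.25 on each array, against -0.33 in the deposited table. Day 20 with EMD 82571 thus lay below 0 on each array, and the treated intensities (8096 to 9650) were mostly under the vehicle intensities (9024 to 14756).

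A2m in maternal liver on day 12 had ratios of 0.02 and 0.04 at the low dose and 0.27 and 0.10 at the high dose. With retinoic acid batch A gave -0.08 and -0.29 and batch B 0.41 and 0.48, which do not overlap and differ in sign. On day 20 its ratios were -0.17 and -0.15 at the low dose, and -0.00 and -0.02 at the high dose. With retinoic acid they were 1.25 and 1.17, a mean of 1.21 ± 0.37 (SE, n = 2) or 2.31-fold higher and the highest of 205 genes. Yet A2m intensity there was 38509 in vehicle and 39377 in treated RNA on the first array and 46098 and 38093 on the second. The median probe on these arrays had a log2 intensity ratio of -1.66 and -1.93, which normalization moves to about 0 and A2m with it, and with median centring alone it was 0.88, and it was 0.51 in the deposited table. For a probe this close to the brightest signal, how far the scan compressed the ratio was not tested. Of 13 hepatocyte markers on these arrays 0 rose and 4 fell, beside 22% of all genes called, with sums of 40010 to 43350 in vehicle and 37710 to 39810 in treated RNA, and their part was not tested.

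**Figure D4:**
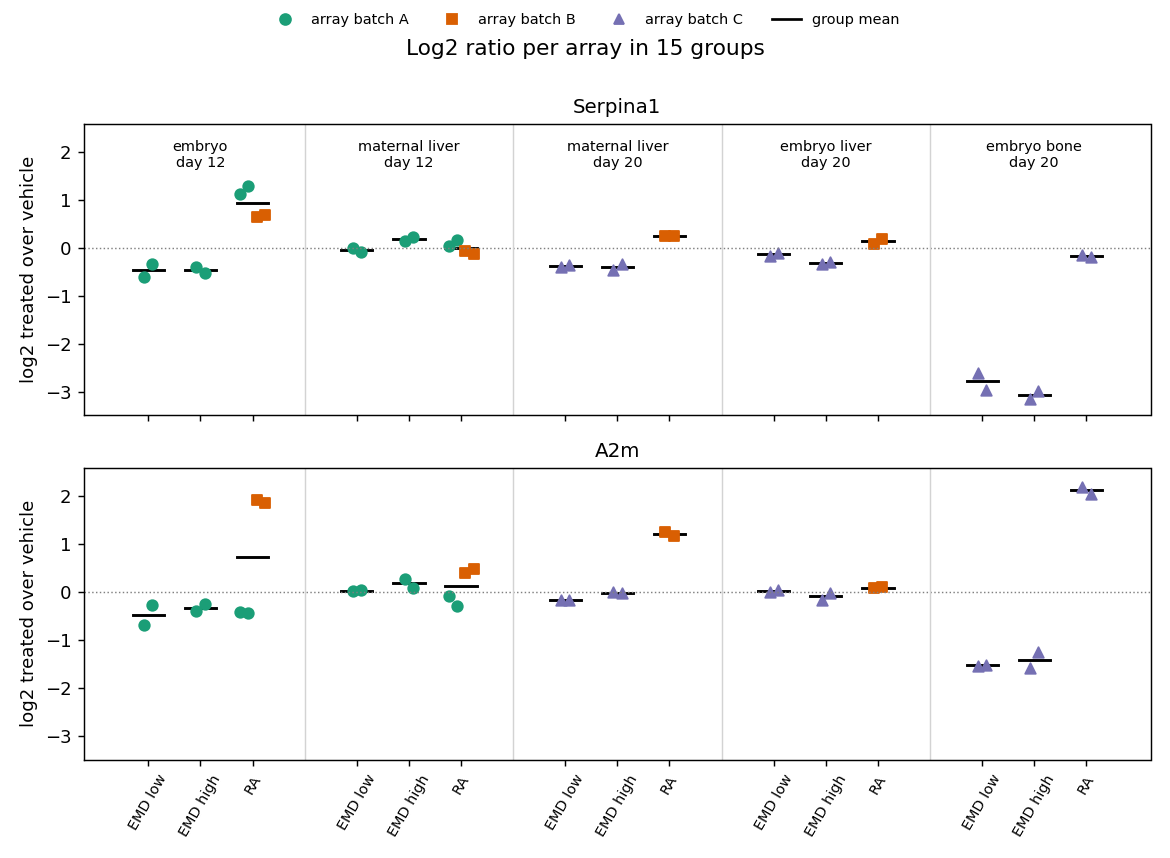
Normalized log2 ratio of treated over vehicle for Serpina1 (top) and A2m (bottom) on each of the 34 arrays in 15 groups, marked by array batch, with group means as bars. Bone with EMD 82571 lies lowest for both genes, and with retinoic acid on day 12 the A2m arrays split by batch (-0.41 and -0.43 in A, 1.93 and 1.87 in B).

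In day-12 embryo, before a mature liver or bone exists, signals were low and the compounds differed in sign for Serpina1. With the low dose its intensity was 236 in vehicle and 153 in treated RNA on the first array and 208 and 110 on the second (log2 ratios -0.60 and -0.33, mean -0.47 ± 0.11 SE, n = 2). With the high dose it was 203 and 133, then 433 and 274 (ratios -0.39 and -0.52, mean -0.46 ± 0.11). Treated channels were lower on each of these arrays.

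With retinoic acid Serpina1 was higher in treated day-12 embryo RNA. Intensities in batch A went from 192 to 465 and from 346 to 921, and in batch B from 141 to 135 and from 138 to 182. The normalized ratios were 1.14 and 1.28 in batch A (mean 1.21, 2.31-fold) and 0.65 and 0.69 in batch B (mean 0.67, 1.59-fold), giving 0.94 ± 0.08 (SE, n = 4) over both and the highest estimate of 229 genes. All 16 spots lay above 0. In batch B the median probe had a log2 intensity ratio of -0.77 and -0.44, so that in batch B normalization adds to the ratio of Serpina1. High dose minus retinoic acid was -1.40 ± 0.13 for Serpina1.

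A2m in day-12 embryo with EMD 82571 had log2 ratios of -0.69 and -0.28 at the low dose and of -0.39 and -0.25 at the high dose (means -0.48 and -0.32, each ± 0.37 SE, n = 2). With retinoic acid A2m intensity went from 136 to 76.9 and from 179 to 117 in batch A, and from 126 to 332 and from 84.7 to 295 in batch B. The ratios were -0.41 and -0.43 in batch A (mean -0.42) and 1.93 and 1.87 in batch B (mean 1.90, 3.72-fold higher). The batches do not overlap and have opposite signs, so the mean of 0.74 ± 0.26 (SE, n = 4) describes neither. Titles of the batch A arrays carry 20 beside RA and those of batch B carry 6, so batch and that number cannot be told apart. Within the array, A2m minus Serpina1 was -1.55 and -1.71 in batch A and 1.27 and 1.18 in batch B, against -0.08 to 0.26 on the day-12 embryo arrays with EMD 82571.

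Hepatocyte markers in day-12 embryo gave 0 rises and 2 falls of 9 tested at the low dose (15.8% of all genes called), 0 and 0 of 12 at the high dose (6.91%, with 2 of the 12 at an unadjusted p under 0.05), and 2 rises and 1 fall of 13 with retinoic acid (33.2%). Their summed level with retinoic acid was 1882 to 2109 in vehicle and 2039 to 2332 in treated RNA, and with EMD 82571 it was 1756 to 1892 in vehicle and 1434 to 1622 in treated RNA. Both rises with retinoic acid, Foxa3 and Hnf4a, did not have a ratio of the same sign on each of the 4 arrays.

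Markers of other cell types were also called in day-12 embryo with retinoic acid, beside the same 33.2% of all genes. Of 5 markers of smooth muscle and endothelium 3 rose, Acta2 by 0.41 ± 0.10, Pecam1 by 0.21 ± 0.07 and Kdr by 0.15 ± 0.05, with sums of 2046 to 2252 in vehicle and 2077 to 3075 in treated RNA. Of 2 osteoblast markers 1 rose, Col1a2 by 0.32 ± 0.08 (sums of 551.7 to 919.8 and 592.2 to 1215). Of 3 cartilage markers tested 2 fell, Acan by 0.23 ± 0.05 and Col9a1 by 0.27 ± 0.09 (sums of 697.6 to 985 and 685.6 to 958.6). With EMD 82571, 2 of 5 markers of smooth muscle and endothelium rose at the low dose and 1 of 5 at the high dose. At the high dose 1 of 2 osteoblast markers fell. Of all genes 15.8% were called at the low dose and 6.91% at the high dose. The part of any of these cell types, hepatocytes included, in the ratios of Serpina1 and A2m in day-12 embryo was not tested.

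The protease list in day-12 embryo had 0 calls of 13 by limma at the low dose (4 with an unadjusted p under 0.05), beside 15.8% of all genes called. At the high dose it had 1 rise and 2 falls of 16, beside 6.91%. Timp1 rose by 0.22 ± 0.06 (adjusted p = 0.0148) and Plau, the urokinase plasminogen activator, fell by 0.43 ± 0.13 (adjusted p = 0.0392). Timp1 lost its call without the second array (0.13) and Plau without the first (-0.20). With retinoic acid 4 rose and 1 fell of 17, beside 33.2% of all genes. Of these rises 2, Serpinh1 and Tgfb1, did not have a ratio of the same sign on each of the 4 arrays. Timp1 rose by 0.27 ± 0.04 (adjusted p = 3.77e-05), Timp3 by 0.18 ± 0.03 (adjusted p = 0.000655), and Mmp7, a small secreted metalloprotease, had -0.26 ± 0.06 (adjusted p = 0.00551) but 0.01 in the deposited table. Of the hepatocyte list 1 of 8 fell at the low dose, 0 of 9 passed by limma at the high dose (1 with an unadjusted p under 0.05), and 3 rose and 1 fell of 9 with retinoic acid. The rises, of Cebpb, Foxa3 and Hnf4a, did not have the same sign on each of the 4 arrays. The fall was that of Cyp7a1 (-0.20 ± 0.06, adjusted p = 0.0145), which lost its call without the third array (-0.14) or the fourth (-0.15). Of the acute-phase list 0 of 3 and 0 of 4 passed by limma with EMD 82571 (0 and 1 with an unadjusted p under 0.05), and Csf2 fell with retinoic acid (-0.43 ± 0.05, adjusted p = 1.12e-05, 1 of 4).

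Lrp1, on chr7:65265639-65346196, takes up complexes of alpha-2-macroglobulin with proteases, and its probe was above background throughout. In bone its log2 ratio was -0.35 and -0.27 at the low dose (-0.31 ± 0.05 SE, n = 2, adjusted p = 9.37e-05 by limma) and -0.10 and -0.06 at the high dose (-0.08 ± 0.05, adjusted p = 0.287). With retinoic acid it was -0.11 and -0.08 (-0.09 ± 0.05, adjusted p = 0.138), which turned to 0.21 with median centring and 0.44 in the deposited table. The bone arrays with EMD 82571 had only 1 to 3 usable Lrp1 spots. In embryo liver Lrp1 did not pass at the low dose (-0.07 ± 0.05, adjusted p = 0.445), fell by 0.40 ± 0.05 at the high dose (adjusted p = 1.39e-06) and rose by 0.18 ± 0.05 with retinoic acid (adjusted p = 0.0056). In day-12 embryo it was at 0.00 ± 0.05 at the low dose (adjusted p = 0.99), fell by 0.25 ± 0.05 at the high dose (adjusted p = 0.00196) and was at 0.01 ± 0.04 with retinoic acid (adjusted p = 0.831). The Lrp1 call was lost without the second array in embryo liver with retinoic acid (0.14) and in day-12 embryo at the high dose (-0.18).

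In maternal liver Lrp1 changed on day 12 by -0.20 ± 0.05 at the low dose (adjusted p = 0.00654, though 0.05 in the deposited table), by -0.28 ± 0.05 at the high dose (adjusted p = 0.000218) and by 0.15 ± 0.04 with retinoic acid (adjusted p = 0.00421), where 14.8%, 22.3% and 29% of all genes passed. On day 20 it rose by 0.25 ± 0.05 at the low dose (adjusted p = 0.0019) and did not pass at the high dose (0.07 ± 0.05, adjusted p = 0.567) or with retinoic acid (-0.07 ± 0.05, adjusted p = 0.353), where 10.2%, 8.05% and 22% of all genes passed. Leaving out either low-dose array ended the call on day 12 (-0.21 and -0.20) and on day 20 (0.24 and 0.27).

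Genes with the most similar profile were sought by Pearson's r over the 15 group means of the log2 ratio, among 207 genes with a value in each group, as a description in which groups share dye orientation and batches. Serpina1 was at -2.79 and -3.07 in bone with EMD 82571 and between -0.47 and 0.94 in every other group. Its r values therefore rest mostly on the bone groups for which it was selected. For A2m, too, bone held the extremes (-1.53, -1.41 and 2.13). For Serpina1 the highest were Itgav (r = 0.86) and Itgb3 (0.78), which encode the subunits of an integrin that osteoclasts carry, then Col1a2, a chain of the main bone collagen (0.75), and A2m (0.74). The lowest were Hoxa2, a patterning gene (-0.88), and Hapln1, the cartilage link protein (-0.87). In bone Itgb3 fell by 0.48 ± 0.12 (SE) at the low and by 0.93 ± 0.12 at the high dose of EMD 82571, and Hapln1 rose by 1.19 ± 0.07 and 1.12 ± 0.07. For A2m the highest were Cyp2d2, a P450 (0.80), Itgav (0.77), Serpina1 (0.74) and Col1a2 (0.74), and the lowest Col9a3, a cartilage collagen (-0.77), and Cyp19a1, aromatase (-0.70). In bone Cyp2d2 changed by -0.71 ± 0.10 and -0.82 ± 0.10 at the low and high dose and by 0.65 ± 0.10 with retinoic acid, the same signs as A2m.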

How the data were processed

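Each array's deposited file holds, per the file headers, the intensity of each spot and its local background in both channels, without subtraction, and marks of unstated meaning from 0 to 3. In the deposited series table the log2 values followed the ratio of treated over vehicle without background subtraction, with column medians of -0.705 to 0.334, so it is uncentred, and its making is not given in the sources used here. That table served as an alternative.

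Intensities were corrected with normexp (offset 50) in limma 3.58.1 (R 4.3.3) and turned into log2 ratios. Global loess (span 0.3) followed, in which marked, empty and control spots had weight 0, and unmarked spots (mark 0) were averaged. A probe was above background where at least 0.5 of its usable spots exceeded background by 2 SD, and was tested where 1 channel was so on 2 arrays. A single fit took 34 arrays and 15 group means, with p-values adjusted by Benjamini-Hochberg (two-sided, threshold 0.05). Channel levels add Aquantile normalization. The steps were tested on simulated data.

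Named genes were Serpina1, A2m and Lrp1, for each of Serpina1 and A2m the 4 most and 2 least similar profiles, and up to 4 genes of each list with the smallest p and the same sign on each array, at the high dose and with retinoic acid in embryo, embryo liver and bone. Cell type markers are named outside that rule, after their values were seen. The genes, lists and tests were chosen with earlier results of these data known. Alternatives changed the background correction, normalization, use of marked spots, arrays in the fit, batch and source, and left out each array.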

Additional observations from a re-analysis of the deposited data

Results flagged for a closer look

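In 4 comparisons every array of one group lay on the other side of 0 from every array of the other, and the difference was not tested because the genes were chosen from these ratios. For Serpina1 with retinoic acid, bone lay below embryo liver by a log2 difference of -0.30 and below day-12 embryo by -1.11. For A2m at the low dose of EMD 82571, bone minus embryo liver was -1.56, and embryo liver minus day-12 embryo was 0.51. The retinoic acid pairs span array batches, and so does the last pair, so batch and tissue cannot be told apart in them. Bone and embryo liver at the low dose share array batch C.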

How the results depend on the processing

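Serpina1 and A2m carry no test, so crossing the threshold is only recorded. Of 316 values recomputed for both genes, 34 crossed to the weaker side, 7 to the stronger side and 19 turned sign, while the others kept direction and side. Serpina1 in bone with EMD 82571 kept its direction and side in each alternative run (-2.96 to -2.30 at the low dose, -3.15 to -1.92 at the high dose), and so did A2m in bone with retinoic acid (1.76 to 2.30). A2m in bone with EMD 82571 ran from -1.54 to -1.06 and from -1.58 to -0.88, and crossed only when an array was left out. No paired analysis was possible because the replicate numbers only follow accession order. What caused the shifts below was not tested, except that fewer arrays enter the fits by tissue and without an array.
Without background correction, Serpina1 in day-12 embryo was -0.22 at the low and -0.26 at the high dose, A2m with retinoic acid there was 0.42, and Serpina1 in day-12 maternal liver with retinoic acid turned to 0.0051 (5.1e-05 with background subtracted). With median centring Serpina1 on day 12 in maternal liver was 0.10 at the low dose, 0.38 at the high dose and 0.093 with retinoic acid, and on day 20 it was -0.25 and -0.33 with EMD 82571. In embryo liver it was -0.076 at the high dose and 0.49 with retinoic acid. A2m on day 20 was then 0.0028, 0.15 and 0.88 in maternal liver (low, high, retinoic acid) and 0.22 in embryo liver at the high dose. Tgfb2 in embryo liver was -0.045, and in bone with retinoic acid Timp2 was 0.11 and Lrp1 0.21. With all spots kept, Serpina1 in day-12 embryo was -0.26 at the low dose.
Fits on 1 tissue and day kept the values but moved the side for Serpina1 in day-12 embryo (-0.47, -0.46), A2m there with retinoic acid (0.74), A2m in day-20 maternal liver at the low dose (-0.16) and Serpina1 with retinoic acid in day-20 maternal liver (0.25) and embryo liver (0.14).
From the deposited log2 table, Serpina1 in day-12 embryo was -0.30 at each dose, A2m there with retinoic acid 0.41 and Mmp7 0.012. In day-12 maternal liver Serpina1 was 0.18 at the low dose and 0.054 with retinoic acid, and Lrp1 0.052 at the low dose. In day-20 maternal liver Serpina1 was -0.18, -0.35 and -0.33 and A2m 0.018, 0.063 and 0.51 (low, high, retinoic acid). In embryo liver Serpina1 was -0.23 at the high dose and 0.69 with retinoic acid, A2m 0.29 and 0.83, and with retinoic acid Timp3 was -0.0099, Tgfb2 -0.047 and Foxa1 0.040. In bone with retinoic acid Serpina1 was 0.13, Mmp24 0.27, Timp2 0.36 and Lrp1 0.44. In batch A alone, retinoic acid on day 12 gave A2m -0.42 in embryo and -0.18 in maternal liver, Lrp1 -0.046 in embryo and Serpina1 0.10 in maternal liver.
The list genes past the threshold numbered 1, 3 and 10 in day-12 embryo (low, high, retinoic acid), 3, 13 and 14 in embryo liver and 5, 10 and 12 in bone. In day-12 embryo at the low dose they became 2 without background correction, 0 with subtraction, 6 with median centring, 4 with all spots, 0 in the fit by tissue and 9 from the deposited table. At the high dose they became 6 with median centring and 0 in the fit by tissue, and with retinoic acid 6 with all spots, 0 by tissue, 2 from the table and 16 in batch A. Embryo liver gave 5 by tissue and 0 from the table at the low dose, 6 from the table at the high dose and 7 with retinoic acid. Bone gave 8 by tissue and 1 from the table at the low dose, and 19 with median centring with retinoic acid. Of 578 values of named list genes, 16 turned sign.
Leaving out each array in turn gave Serpina1 -0.60 to -0.33 and -0.52 to -0.39 in day-12 embryo (low, high), -0.058 to 0.041 in day-12 maternal liver with retinoic acid, -0.39 to -0.36 and -0.47 to -0.34 in day-20 maternal liver (low, high) and -0.33 to -0.29 in embryo liver at the high dose. For A2m it gave 0.34 to 1.13 in day-12 embryo and 1.17 to 1.25 in day-20 maternal liver with retinoic acid, and -1.54 to -1.51 and -1.58 to -1.24 in bone (low, high). The list genes past the threshold were then 0 in day-12 embryo and 0 in embryo liver at the low dose, 6 to 7 (high) and 8 to 16 (retinoic acid) in embryo liver, and 3 (low) and 5 to 8 (high) in bone. Lrp1 turned sign in day-12 embryo at the low dose (-0.0015 to 0.0039) and with retinoic acid (-0.012 to 0.041), and in embryo liver at the low dose (-0.13 to 0.0017).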
